A study of Mus musculus with 19 samples.

Results

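AP-1 transcription factors were followed across the thymus in 7 of the 28692 genes counted: *Fos*, *Fosb* and *Fosl2* of the Fos family, *Jun*, *Junb* and *Jund* of the Jun family, and *Batf*. The members were chosen by name, not by a measured value. Thymocytes of 17 female mice aged 4 to 8 weeks were measured by CITE-seq, which counts the RNA and, through DNA-tagged antibodies, the surface proteins of the same single cells. There were 5 wild-type (WT) mice, 3 of them sorted for CD5+TCRβ+ cells (WT r1 to r3) and 2 unsorted (WT r4 and r5). The CD4-fated mice were AND (2 mice), OT-II (2 mice) and MHCI-/- (2 mice), and the CD8-fated mice were F5 (2 mice), OT-I (2 mice) and MHCII-/- (2 mice). AND and OT-II carry a transgenic T cell receptor (TCR) for MHC class II ligands. The transgenic receptors of F5 and OT-I see MHC class I ligands. Both AND and F5 mice also lacked *Rag1*, so their cells carried only the transgenic TCR. MHCI-/- mice lacked *B2m* and MHCII-/- mice lacked *H2-Ab1*, and both were sorted like WT r1 to r3. The TCR transgenic mice were not sorted. Experiments 1 and 2 held WT r1 to r3, AND, F5, MHCI-/- and MHCII-/-, and experiment 3, done at another site, held WT r4 and r5, OT-I and OT-II, so the OT family and the site cannot be told apart.

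AP-1 is a dimer of basic leucine zipper proteins. Jun proteins pair with each other or with Fos proteins, Fos proteins need a Jun partner, and BATF pairs with Jun proteins and binds with IRF4 at composite sites. TCR signaling through the Ras and MAP kinase pathway induces *Fos* within minutes, AP-1 then binds many cytokine and activation genes together with NFAT, and in the thymus this signaling accompanies positive selection, in which CD4+CD8+ double-positive (DP) cells with a useful receptor become CD4+ or CD8+ T cells. *Junb* and *Jund* are also expressed in resting T cells, and *Fosl2* and *Batf* are known for roles in regulatory and effector T cells.

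Gene positions are those of GENCODE on GRCm38. *Fos* lies at chr12:85473890-85477273 and *Batf* on the same chromosome at chr12:85686669-85709087. *Junb* lies at chr8:84974484-84978718 and *Jund* at chr8:70698949-70700616. *Fosb* lies at chr7:19302696-19310051, *Fosl2* at chr5:32135801-32157842 and *Jun* at chr4:95049034-95052222. *Jun* and *Jund* have 1 exon in every annotated transcript.

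The 150 bases before the RefSeq start (GRCm38.p6) are shown for the 3 members that rose together after the first sign of TCR signaling (*Fos*, *Junb* and *Batf*, below) and for *Jun*, which did not pass the test there. Capitals mark the motifs found: TGACG, the half-site of the cAMP response element, TGACATCA, an AP-1 variant, and in *Jun* also, as the second run of capitals, a MEF2 site.

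Fos, chr12:85473740-85473889, plus strand: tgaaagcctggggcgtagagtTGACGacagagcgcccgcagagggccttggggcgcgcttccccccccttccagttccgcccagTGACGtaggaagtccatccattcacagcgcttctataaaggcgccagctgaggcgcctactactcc

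Junb, chr8:84978749-84978898, minus strand: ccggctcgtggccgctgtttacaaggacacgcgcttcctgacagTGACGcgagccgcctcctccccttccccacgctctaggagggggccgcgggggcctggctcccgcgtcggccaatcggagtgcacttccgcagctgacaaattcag

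Batf, chr12:85686570-85686719, plus strand: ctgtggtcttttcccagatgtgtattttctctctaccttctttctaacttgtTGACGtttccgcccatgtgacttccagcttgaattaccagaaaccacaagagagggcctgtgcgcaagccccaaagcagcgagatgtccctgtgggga

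Jun, chr4:95052223-95052372, minus strand: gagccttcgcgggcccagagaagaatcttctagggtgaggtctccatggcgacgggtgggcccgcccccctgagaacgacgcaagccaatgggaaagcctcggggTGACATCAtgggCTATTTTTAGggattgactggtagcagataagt

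Both strands of all 7 members were searched. TGACG was present in *Fos* (2 copies), *Fosb*, *Junb* and *Batf*, and in 13.3% of all 32851 promoter windows of that length. The *Jun* window held TGACATCA (2.32% of windows) and the MEF2 site (0.067% of windows). None of the 7 windows held TGACGTCA (1.36% of windows), TGACTCA (2.84%) or a CArG box (0.916%), and TGACG also lies within TGACGTCA. The RefSeq start differs from the GENCODE start for some members: the *Jund* window (chr8:70697589-70697738) lies upstream of the printed gene and the *Fosl2* window (chr5:32136322-32136471) inside it. These matches describe letters in a window and are not binding sites measured here.

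The lanes held 9893333 to 43303999 RNA unique molecular identifiers (UMIs), and of 85389 barcodes 72054 passed the cell filters and 69451 were left after doublet calls. Median depth was 1519 to 7259 UMIs per kept cell over the lanes. The experiment 1 lanes (WT r1, AND r1 and F5 r1) shared 33 to 35 barcodes with each other, 1.23% to 1.27% of the smaller lane. Other pairs of lanes shared at most 17 barcodes, and at most 0.411%. The cause was not tested. Levels are given in CPM, the UMIs of a gene scaled by all RNA UMIs of the same cells, summed over the cells of a mouse in a class, gate or bin with at least 10 cells. Levels of 1 gene are compared between cells, not levels of different genes, and in these sums fewer expressing cells and less RNA per cell cannot be told apart. Lanes 16 to 19 (WT r5, OT-I r2 and OT-II r2) stood apart: there *Jund* was lower in each of the 6 main classes, and results were also computed without these mice. Cells were clustered without the 7 members and the genes of the lists below, after a correction between 4 sets of lanes, and clusters were named X-like from fixed markers. All markers were highest in their own class for the Treg-like (5 of 5), cycling-like (6 of 6), interferon-like (6 of 6) and myeloid-like (7 of 7) classes. The CD8 SP-like class had 2 of 6 and the DN-like class 3 of 6 highest in it, and the larger of the 2 DN-like clusters (2925 cells) scored highest for cycling markers. The mature SP-like (single-positive) class had 0 of its 6 markers highest in it, with 4 of 6 among its top 2 classes, and it joined a cluster mostly of CD4-fated and WT mice with one mostly of F5 and OT-I. The gamma-delta T-like class held 414 and 44 cells of the AND mice and 10 and 30 of the F5 mice, although *Rag1*-deficient mice rearrange no receptor genes, so its name stands only for its markers. Class levels are descriptions, without a test.

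The Treg-like class, named for regulatory T cells by its markers (limits below), had the highest mean level of *Fosl2*, *Junb*, *Batf* and *Fosb*. Among the WT mice the *Junb* level there was 318, 290, 253, 253 and 232 CPM in r1 to r5, against 161 ± 32 CPM (SD, n = 5) in the signaled DP-like class and 58.3 ± 12 CPM in the quiescent DP-like class. It was higher in Treg-like cells than in each of the 10 other classes in every mouse that had both (12 of 12 mice against the myeloid-like and signaled DP-like classes), 1.96 times the myeloid-like level on average. *Fosl2*, a Fos family member, was at 21.9, 19.6, 18.8, 17.1 and 7.48 CPM in Treg-like cells of WT r1 to r5 and at 3.04 ± 1.4 CPM (SD, n = 5) in the mature SP-like class. Its Treg-like level exceeded the NKT-like level in 9 of 9 mice with both, the interferon-like level in 10 of 11 and the myeloid-like level in 10 of 12.

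*Batf* was at 92.6, 93.0, 84.5, 74.6 and 26.2 CPM in Treg-like cells of WT r1 to r5. The lowest value was again that of WT r5, and the other 4 lay together. Its next level, in the gamma-delta T-like class, reached 136 and 104 CPM in the AND mice and 101 CPM in OT-I r1, and Treg-like cells were higher in only 6 of 8 mice. *Fosb*, an immediate-early Fos gene, was sparse, at 3.37 to 8.26 CPM in Treg-like cells of the WT mice and 3.90 ± 2.0 CPM in signaled DP-like cells, with 6 of 9 mice higher in the Treg-like than in the NKT-like class.

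Some Treg-like values rest on few cells. *Foxp3*, which defines regulatory T cells, was at 83.7 to 138 CPM in the Treg-like cells of the WT mice but at 0 in AND r1 (22 cells) and OT-I r2 (24 cells), which go against the class name. OT-I r1 held 37 such cells and had the highest *Fos* (81.7 CPM), *Junb* (453 CPM) and *Fosl2* (63.1 CPM), AND r1 had the highest *Batf* (303 CPM, from 31 UMIs), and OT-I r2 had the highest *Fosb* (86.7 CPM, from 6 UMIs), without which the *Fosb* mean over mice fell from 13.2 to 6.48 CPM. The WT values above leave these mice out. The genes that led the cluster included *Tnfrsf4* and *Foxp3* but also *Tnfrsf9*, *Gadd45b*, *Nr4a3* and *Nr4a1*, which TCR signals induce. The study used *Nr4a1* and *Ikzf2* among its markers of negative selection, and *Tnfrsf18* and *Tnfrsf4* for a late wave of it. *Ikzf2*, *Tnfrsf18* and *Tnfrsf4* are also markers that named this class, and *Gadd45b* was on the list used here for negative selection. No class was named for negative selection, and whether the Treg-like class holds such cells was not tested. Summed heat shock genes, a sign of cell stress or handling, were at 4468 to 6311 CPM in Treg-like cells of the WT mice, and 17 other immediate-early genes at 3470 to 5347 CPM. Their part in the AP-1 levels was not tested.

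*Fos*, the immediate-early member, had its highest mean in the myeloid-like class (21.1 CPM over 17 mice), and was at 14.1 CPM in the signaled DP-like class. The Treg-like mean of 16.1 CPM rests on OT-I r1 and was 10.1 CPM over the other 11 mice, and the Treg-like level was above the signaled DP-like level in 3 of 12 mice (mean log2 difference -0.54). These neighbours did not differ beyond the spread between mice. In WT mice *Fos* was at 17.4 ± 4.5 CPM (SD, n = 5) in signaled DP-like cells, with a range of 11.3 to 22.0 CPM, and at 1.19 ± 0.75 CPM in quiescent DP-like cells, so these ranges did not overlap. *Jun*, the founding Jun gene, was highest in the myeloid-like class (47.4 CPM, with 1 mouse, F5 r1, at 277 CPM from 14 cells) and next in Treg-like cells (26.5 CPM). In Treg-like cells *Jun* ran from 15 to 42.4 CPM in WT mice and was at 40.9 to 48.6 CPM in all 4 MHCI-/- and MHCII-/- mice, but at 0 in AND r1 and OT-I r2.

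*Jund*, which is expressed in resting cells, had another order. Its mean was highest in quiescent DP-like cells (767 CPM), close to Treg-like (670 CPM), CD8 SP-like (617 CPM) and mature SP-like (599 CPM) cells, and lowest in double-negative-like (DN-like) cells (227 CPM). In WT mice it was at 810 ± 310 CPM in quiescent DP-like and 401 ± 140 CPM in signaled DP-like cells (SD, n = 5), the SD being set mostly by WT r5. *Junb* and *Jund* thus ran in opposite directions between the quiescent and the signaled DP-like classes in these means.

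To set depths equal, every cell with at least 1000 RNA UMIs was reduced at random to 1000 UMIs and the share of cells with a UMI was taken. Cells below that depth were left out, and lanes and classes differ in depth. *Junb* was seen in 22.6% ± 2.39 of Treg-like cells (SD over 12 mice, median depth 5173 UMIs) and in 5.14% ± 2.10 of quiescent DP-like cells (17 mice, 2356 UMIs). *Fosl2* was seen in 2.40% ± 1.79 of Treg-like cells and in 0 of 4221 DN-like cells (9980 UMIs), which allows a share of up to 0.0711% at this depth with the cells of all mice pooled. Without the reduction it was seen in 7 of 4227 DN-like cells (0.166%). *Lyz2*, a myeloid gene taken as a gauge of free RNA, was seen in 35.6% of myeloid-like cells and in 0.0642% to 0.616% of cells of the other classes except Treg-like, where it was seen in 0 of 1206 cells, which allows up to 0.249%. These limits cover counting error only.

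**Figure D1:**
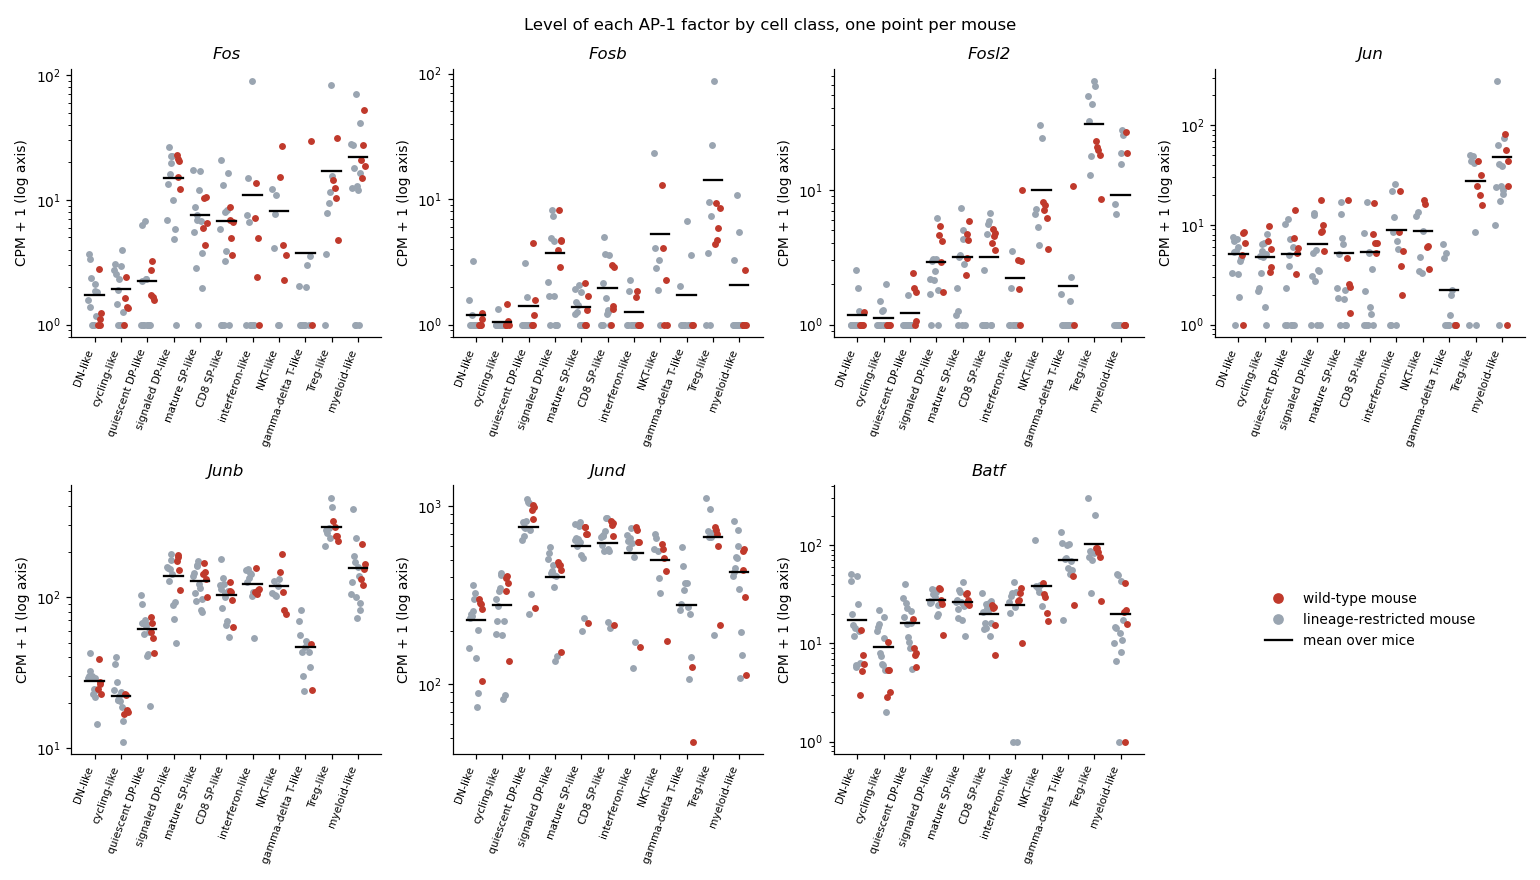
Level of each AP-1 factor (CPM + 1, log axis) in 11 cell classes, 1 point per mouse with at least 10 cells of the class, WT mice in red and lineage-restricted mice in grey, with the mean over mice as a black line. Junb, Fosl2, Batf and Fosb have their highest mean in the Treg-like class, Fos and Jun in the myeloid-like class and Jund in the quiescent DP-like class.

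The first steps of positive selection were followed by protein gates in the 5 WT mice. Gates were set on antibody counts, in cells outside the gamma-delta T-, NKT-, Treg- and myeloid-like classes, which came from RNA, so the class with the highest *Junb*, *Batf* and *Fosl2* means is not in them. DP1 cells were CD4+CD8a+ without CD69 or CD127, DP2 cells had gained CD69, a marker of recent TCR signaling, CD4+CD8lo cells had lost CD8a, and semimature (SM) and mature (Mat) CD4 and CD8 cells had gained CD127, the mature ones without CD69. The CD69 and CD127 cuts were set within each mouse on its CD4+CD8a+ cells lowest in TCRβ, so some of these pass by rule. *Fos*, *Junb* and *Batf* rose from DP1 to DP2 by edgeR's quasi-likelihood test with the mouse as a block and Benjamini-Hochberg adjustment over all genes. All gates entered 1 fit of 39 sums from the 5 mice, so the spread is pooled over gates. The fit also held a DP3 gate of CD4+CD8a+ cells with CD69, CD127 and TCRβ. No step to or from DP3 was tested, and its member levels are not given here, so the gated series is not complete. These were 3 of the 5 members tested, where 23.2% of all 9465 genes passed.

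*Junb* was at 64.2, 94.3, 40.3, 44.5 and 37.5 CPM in DP1 cells of WT r1 to r5 and at 164, 180, 163, 74.4 and 61.7 CPM in DP2 cells. It was higher in DP2 in 5 of 5 mice, and the sorted mice had the highest DP2 values. This was a log2 fold change of 1.02 (SE 0.16), with an adjusted p of 1.99e-06 by edgeR.

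*Batf* was at 12.6, 15.4, 9.59, 6.44 and 3.08 CPM in DP1 and at 39.4, 49.3, 27.2, 8.74 and 10.8 CPM in DP2 cells. It was also higher in 5 of 5 mice, with a log2 fold change of 1.31 (SE 0.27) and an adjusted p of 0.000274 by edgeR.

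*Fos* was at 5.19, 9.48, 1.92, 1.44 and 1.06 CPM in DP1 and at 21.1, 7.95, 11.7, 4.79 and 3.86 CPM in DP2 cells. It was higher in DP2 in 4 of 5 mice, WT r2 being the exception, and each DP2 value rested on 5 to 22 UMIs. *Fos* thus had a log2 fold change of 1.48 (SE 0.45, adjusted p = 0.013 by edgeR), and without WT r1 it was 1.23 with an adjusted p of 0.101. The *Fos* call was also lost with no mouse block.

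With no filter on low counts *Fosl2* also passed (2.60, adjusted p = 0.00285 by edgeR).

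*Jund* (log2 fold change -0.06, SE 0.11) and *Jun* (0.05, SE 0.34) did not pass the test from DP1 to DP2, with 95% intervals of -0.28 to 0.16 and -0.64 to 0.74. *Fosb* and *Fosl2* did not pass the filter on low counts. Their levels over all WT mice were 0.294 to 3.59 CPM in DP1 and 0 to 1.95 CPM in DP2 for *Fosb*, and at most 0.512 CPM in DP1 and 3.84 CPM in DP2 for *Fosl2*. Summed myeloid markers were at 128 to 182 CPM in DP1 and 117 to 200 CPM in DP2, and summed heat shock genes at 2489 to 3832 and 2460 to 4331 CPM, so the ranges overlapped in both. *Cst3* of the myeloid list had a mean of 147 CPM in quiescent DP-like cells, so the myeloid sums do not measure myeloid RNA alone.

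Of the next steps, CD4+CD8lo against DP2 had 1 member past the test, where 26.1% of genes passed. *Junb* was at 146, 163, 172, 139 and 117 CPM in CD4+CD8lo cells of WT r1 to r5. It was lower than in DP2 in WT r1 and r2 and higher in WT r3 to r5, most clearly in the unsorted mice. Over the 5 mice it had a log2 fold change of 0.49 (SE 0.16, adjusted p = 0.017 by edgeR), but in the 3 sorted mice alone it was 0.08 (adjusted p = 0.855), without WT r4 it was 0.27 (adjusted p = 0.347) and without WT r5 0.35 (adjusted p = 0.118). With library sizes alone it was 0.31 (adjusted p = 0.120), a scaling that moved the median of all genes in this step by -0.17.

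No member passed the test from CD4+CD8lo to CD4 SM (2.2% of genes passed), from CD4 SM to CD4 Mat (11.3%), from CD8 SM to CD8 Mat (1.51%) or between CD8 Mat and CD4 Mat (5.58%). *Junb* had a log2 fold change of -0.63 (SE 0.22, adjusted p = 0.179 by edgeR) from CD8 SM to CD8 Mat and was lower in CD8 Mat in 5 of 5 WT mice. *Fos* was at 2.52 to 19.7 CPM in CD8 SM and at 0 in 3 of 5 mice in CD8 Mat (log2 fold change -2.17, SE 1.00, adjusted p = 0.375 by edgeR). With no filter on low counts *Junb* passed there (-0.61, adjusted p = 0.023) and between CD8 Mat and CD4 Mat (-0.55, adjusted p = 0.013 by edgeR).

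**Figure D2:**
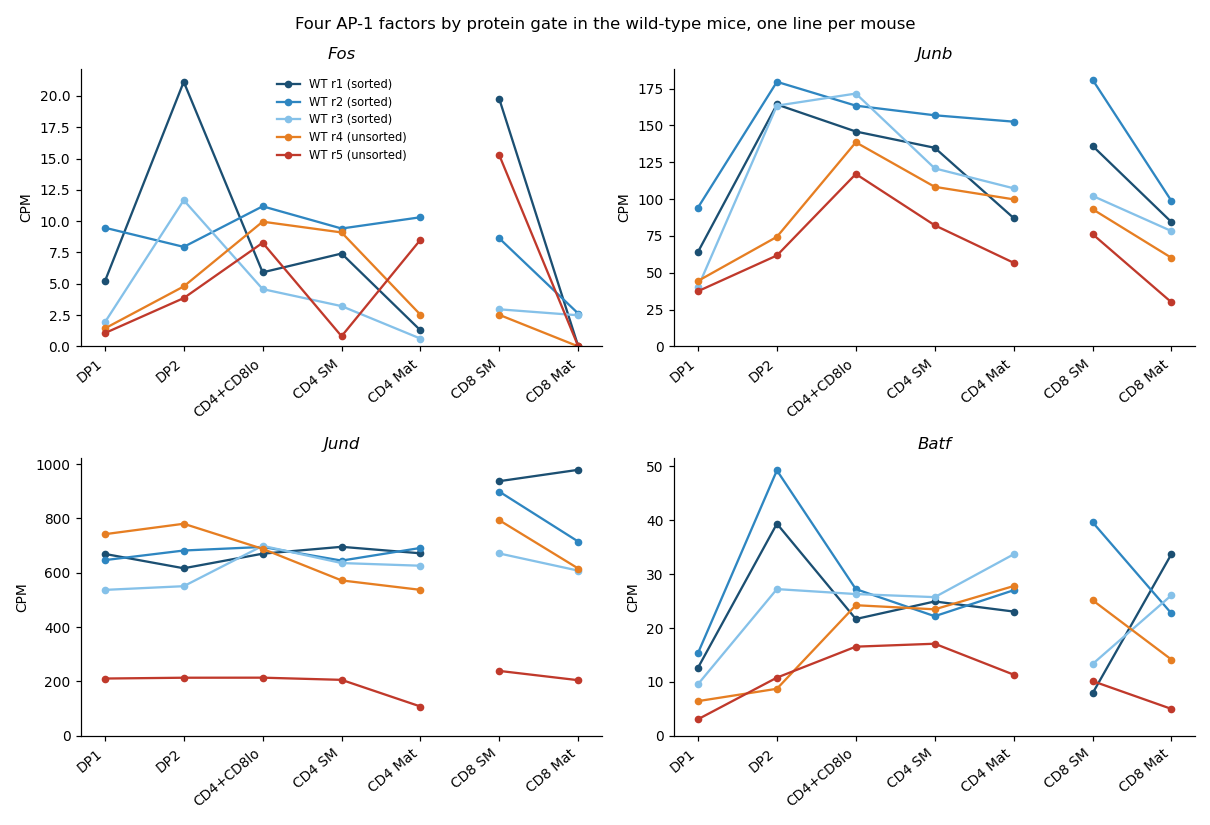
Levels (CPM) of Fos, Junb, Jund and Batf in protein gates of the 5 WT mice, 1 line per mouse, with the CD8 gates drawn apart from the CD4 series. The DP3 gate is not drawn. From DP1 to DP2 Junb and Batf are higher in all 5 mice and Fos in 4 of 5, and Jund is lower in WT r5 (red) than in the other mice at every gate drawn.

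The genes around AP-1 gave these counts from DP1 to DP2. Of 13 TCR-induced genes tested 13 rose (median log2 fold change 1.76, against -0.01 over all genes), with *Nr4a3* at 3.54, *Itm2a* at 2.57 and *Nr4a1* at 2.53. This list includes *Cd69*, whose protein defined the gate. Of 14 other immediate-early genes 6 rose and 1 fell, led by *Gadd45b*, *Ier2* and *Zfp36l1*, which rose by 3.82, 1.26 and 1.05 on the log2 scale. Of 16 MAP kinase pathway genes 4 rose, *Rasgrp1* (0.63) among them, and of 9 other bZIP genes 2 rose, *Bach2* by 2.05 and *Nfe2l1* by 0.39, both shares being near the 23.2% of all genes that passed. Of 8 factors that act on AP-1 promoters 3 rose: *Elk3* (0.71), *Srf* (0.60) and *Elk4* (0.31), the serum response factor and its partners. Of 7 partners at composite sites 3 rose and 1 fell, with *Nfatc1* at 1.32, *Nfatc2* at 0.58 and *Nfatc3* at -0.74. *Bach2* encodes a repressor that competes for AP-1 sites.

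*Bach2* rose again from DP2 to CD4+CD8lo (log2 fold change 1.81), while *Bach1* fell by 1.18 on the log2 scale. *Irf4*, the partner of BATF, rose there by 1.69. From CD4 SM to CD4 Mat 7 of 13 TCR-induced genes fell and none rose, *Itm2a* and *Egr2* among them (-2.53 and -1.71), where 11.3% of all genes passed.

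The CD4-fated and CD8-fated mice were compared stage by stage, first in 10 bins of diffusion pseudotime. Genes of maturation still differed between the fates within bins (below). The order held 37253 cells of 7 clusters and ran to mature cells. It started among the cells highest in *Rag2*, *Arpp21* and *Aqp11*, which are markers of quiescent DP cells. Of these clusters 1 was unnamed (9328 cells) and scored highest for signaled DP markers. The fit held the family (AND with F5, OT-II with OT-I, MHCI-/- with MHCII-/-) as a covariate, and 12 mice entered bins 1 to 8 and 11 mice bins 9 and 10, where F5 r2 had under 10 cells. Over all bins 6 of 36 member values passed, all in bins 8 to 10: *Junb* in 3 of the 10 bins where it was tested, *Jun* in both of its bins and *Fosl2* in its only one. *Jun* and *Fosl2* came past the filter on low counts there through the mice in which they were high, so their calls and the total of 6 are given as a description. Of all genes 6.12% passed in bin 8, 7.59% in bin 9 and 17.3% in bin 10, and 0.0833%, 0.0479%, 0.0148%, 0.139%, 2.22%, 5.09% and 5.41% in bins 1 to 7.

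*Junb* was higher in CD4-fated mice in bins 8, 9 and 10. In bin 10 its level was 134 and 128 CPM in AND, 93.7 and 144 in OT-II and 137 and 122 in MHCI-/-, against 106 in F5 r1, 50.9 and 49.0 in OT-I and 92.6 and 86.5 in MHCII-/-. Only OT-II r1 lay within the range of the CD8-fated mice, and in each family both CD4-fated mice were above both CD8-fated mice of that family (the F5 side having 1 mouse). This gave a log2 fold change of 0.76 (SE 0.17), with an adjusted p of 0.00571 by edgeR, and it passed without each mouse in turn. With cells ordered by a maturation score in place of pseudotime it was 0.43 (adjusted p = 0.084).

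In bins 8 and 9 that order gave 0.75 and 0.80, and both passed.

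In bin 8 *Junb* was at 147 and 140 CPM in AND, 109 and 42.2 in OT-II and 160 and 170 in MHCI-/-, and at 105 and 99.2 in F5, 65.2 and 53.1 in OT-I and 92.3 and 112 in MHCII-/-. OT-II r2 was the lowest of all 12 mice. The log2 fold change was 0.56 (SE 0.15, adjusted p = 0.035 by edgeR), and the call was lost without any 1 of 9 mice, with adjusted p of 0.068 without F5 r2 to 0.140 without MHCII-/- r1. The other 7 were AND r1 (0.072), AND r2 (0.074), F5 r1 (0.080), MHCI-/- r1 (0.098), MHCI-/- r2 (0.091), MHCII-/- r2 (0.083) and OT-II r1 (0.109). With the cells of alternative branches kept it was 0.45 (adjusted p = 0.110).

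In bin 9 *Junb* was at 127.3 and 141 CPM in AND, 120 and 66.6 in OT-II, 178 and 172 in MHCI-/-, 114 in F5 r1, 54.7 and 80.9 in OT-I and 103 and 91.5 in MHCII-/-. Its log2 fold change was 0.61 (SE 0.16, adjusted p = 0.029 by edgeR). The call was lost without AND r2 (adjusted p = 0.059), OT-II r1 (0.083), MHCI-/- r1 (0.107), MHCI-/- r2 (0.093), MHCII-/- r1 (0.106) or MHCII-/- r2 (0.142). Without the family covariate the log2 fold changes were 0.58, 0.64 and 0.78 in bins 8, 9 and 10, and only bin 10 passed. Without the mice of lanes 16 to 19 they were 0.62, 0.74 and 0.61, and all 3 passed.

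*Jun* was high in MHCI-/- mice in bins 9 and 10, the only bins where it passed the filter on low counts. In bin 10 it was at 22.2 and 14.8 CPM in MHCI-/- and at 4.82 and 3.73 CPM in MHCII-/-, and in AND, F5, OT-II and OT-I it was at 0 to 1.51 CPM with at most 3 UMIs a mouse. The WT mice lay at 3.40 to 11.8 CPM in this bin. In bin 9 MHCI-/- was at 21.5 and 16.3 CPM, MHCII-/- at 3.18 and 2.22 CPM and the other families at 0 to 3.96 CPM. Within families the mean of log2(CPM + 1) in bin 9 was 2.42 higher under the CD4 fate in the MHC family, 0.07 higher in the OT family and lower in AND than in F5 (-1.58, from 3 UMIs on each side and 1 F5 mouse). In bin 10 the difference was 1.87 in the MHC family, 0.42 in the AND and F5 family and 0.16 in the OT family, and in the last 2 the fates overlapped. Below the filter, both MHCI-/- mice also lay above both MHCII-/- mice in bins 4, 5, 7 and 8 (2.06, 1.29, 2.26 and 0.89). In bins 1, 2, 3 and 6 they were not apart. With 2 mice on each side such gaps also arise by chance, and their share over all genes was not computed. Between the fates the log2 fold change was 2.06 (SE 0.58, adjusted p = 0.039 by edgeR) in bin 9 and 2.01 (SE 0.43, adjusted p = 0.0038) in bin 10. With no filter it was 2.07 and 1.96, and both passed. Without either MHCI-/- mouse *Jun* no longer passed the filter on low counts in either bin, and without MHCII-/- r2 the adjusted p was 0.307 and 0.074. In bin 9 it was also lost without AND r1 (0.058), OT-II r1 (0.058) or MHCII-/- r1 (0.169), and with DESeq2 (log2 fold change 1.45, adjusted p = 0.292). In both bins it was below the filter without the family covariate and with the maturation score. Whether the families differ in this effect was not tested.

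*Fosl2* was high in OT-I and MHCII-/- mice in bin 10, the only bin where it passed the filter on low counts. It was at 8.26 and 6.57 CPM in MHCII-/- and at 6.15 and 13 CPM in OT-I, against 1.11 and 0 in MHCI-/- and 3.02 and 0 in OT-II. AND and F5 r1 were at 0, so the values above 0 came from 2 of 3 families. None of the CD4-fated mice had more than 2 UMIs. The fitted log2 fold change was -2.88 (SE 0.71, adjusted p = 0.011 by edgeR), which depends on the prior count where mice are at 0, and -2.93 with no filter, where it also passed. The WT mice lay at 0 to 5.1 CPM, with a median of 3.40 CPM. Leaving out AND r2, MHCI-/- r2 or any OT-I or MHCII-/- mouse took *Fosl2* below the filter, and the call was kept without each of the others. It was also below the filter without the family covariate, with the maturation score and without lanes 16 to 19.

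*Batf* and *Jund* passed in no bin with the family as covariate, and *Fos* in none of the 4 bins where it could be tested. *Batf* had log2 fold changes of -0.49 to 0.91, the highest in bin 5 (SE 0.31, adjusted p = 0.180 by edgeR). *Jund* had -0.60 (SE 0.24, adjusted p = 0.194) in bin 6, where the difference in mean log2(CPM + 1) was -1.18 in the MHC family, -0.28 in the OT family and -0.22 between AND and F5, and 0.00 (SE 0.20) in bin 10, where the 95% interval was -0.43 to 0.43. *Junb* in bin 5 had 0.74 (SE 0.20, adjusted p = 0.057 by edgeR). With no filter on low counts *Junb* (0.69) and *Fosb* (3.17) passed in bin 5, *Jund* (-0.63) in bin 6 and *Jun* (2.17) in bin 7. With the replicate block in place of the family, *Junb* in bin 5 (0.76, adjusted p = 0.0161 by edgeR) and *Jund* in bin 6 (-0.64, adjusted p = 0.011) passed.

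**Figure D3:**
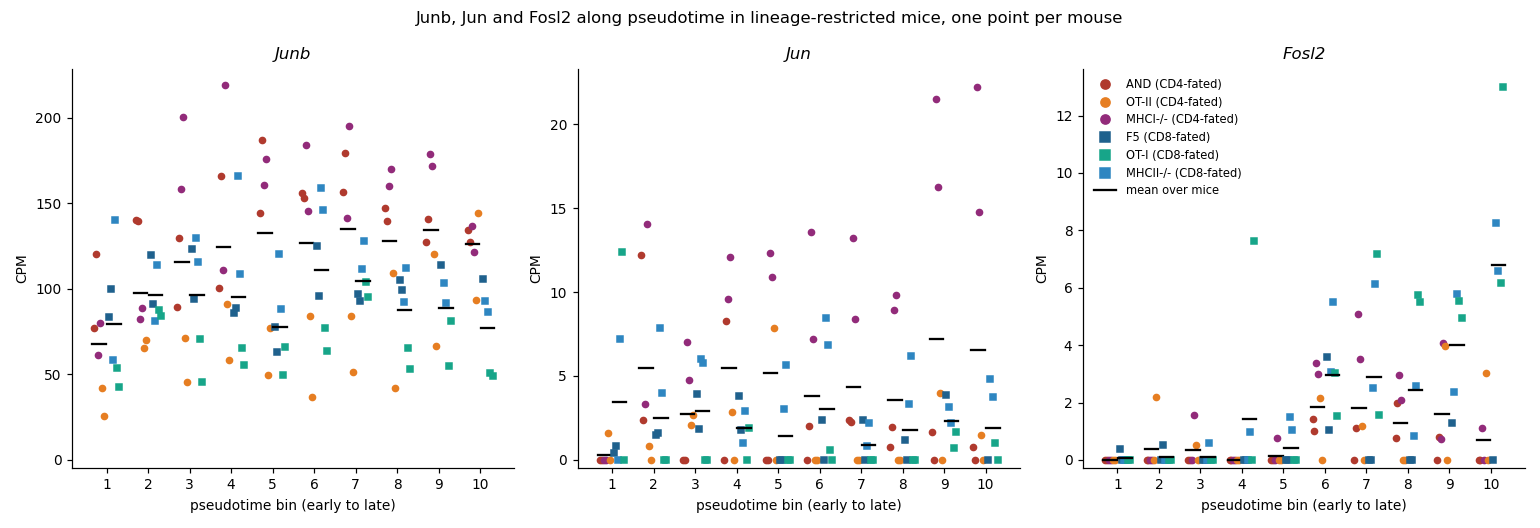
Levels (CPM) of Junb, Jun and Fosl2 in 10 pseudotime bins of the 12 lineage-restricted mice, 1 point per mouse with at least 10 cells, circles for CD4-fated and squares for CD8-fated mice, with the mean over mice as a black line. Junb is higher in CD4-fated mice late, the high Jun values of bins 9 and 10 are those of the MHCI-/- mice, and the Fosl2 values of bin 10 that stand out are those of OT-I and MHCII-/-.

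Other measures moved with the fate in these bins. In bin 10 summed heat shock genes ran from 2238 to 3254 CPM under the CD4 fate and from 3911 to 6046 CPM under the CD8 fate, without overlap, and 6 of 8 tested heat shock genes were lower in CD4-fated mice. The 17 other immediate-early genes had medians of 2533 CPM (range 2095 to 2768) and 1582 CPM (range 1239 to 2097), in the same order, and 7 of 13 tested were higher in CD4-fated mice, *Socs3* (1.32), *Ppp1r15a* (1.11) and *Btg2* (0.86) with the largest changes. In bin 6 *Socs3* went the other way (-2.73). Of 8 myeloid markers 1 could be tested, *Cst3*, which was lower in CD4-fated mice (-0.57) and is also seen in quiescent DP-like cells (147 CPM). Their sums were 24.9 to 95.7 CPM under the CD4 fate and 73.9 to 125 CPM under the CD8 fate, and those of 5 B cell markers 0.785 to 10.6 and 23.6 to 60.6 CPM, with *Cd79b* at -3.64. In the WT gates 1 of the 5 B cell markers could be tested. It was higher in CD8 Mat than in CD4 Mat (log2 fold change 3.69) and than in CD8 SM (1.64). The part of B cells in these sums was not tested. In bin 4 *Klf2* (-1.51) and *Ms4a4b* (-1.12), genes of late maturation, were lower in CD4-fated mice. In bins 5 and 6 genes of late maturation were lower in CD4-fated mice (3 of 6 and 4 of 6, with *S1pr1* at -3.32 and -3.30), but *Il7r* of the same list was higher in bins 6, 7 and 8 (1.95, 1.71 and 0.78). In bin 10 *S1pr1* (1.15) and *Ccr7* (1.00) were higher and *Cd24a*, an early gene, lower (-2.04). The part of these in the AP-1 differences was not tested.

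Of the composite-site partners, 2 of 6 tested were higher in CD4-fated mice in bin 7, 1 of 6 in bin 8, 2 of 7 in bin 9 and 2 of 6 in bin 10, where 5.41%, 6.12%, 7.59% and 17.3% of all genes passed in either direction. *Runx1* was higher in CD4-fated mice in bins 7 to 10 (log2 fold change 1.46, 1.14, 1.53 and 1.80), *Irf4* in bin 7 (1.53) and *Ets1* in bins 9 and 10 (0.53 and 0.80). Of 8 or 9 other bZIP genes tested, *Bach2* alone passed, higher in bins 5 to 8 and 10 by 0.89 to 1.07 on the log2 scale. Of 12 TCR-induced genes 9 were higher in CD4-fated mice in bin 5 (median log2 fold change 1.17, against 0.00 over all genes), with *Itm2a* at 1.81, *Egr2* at 1.63 and *Cd69* at 1.5.

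In the protein gates shared by both fates no member passed. DP1, DP2 and CD4+CD8lo gave 60 member values over the contrast of all families and those within each family, of which 0 passed at an adjusted p under 0.05 in edgeR and 7 had an unadjusted p under 0.05. Of all genes 0.0578% passed in DP1, 0.137% in DP2 and 1.01% in CD4+CD8lo between the fates. Within families the shares were 0.125%, 0.231% and 0.135% in DP1, 0.174%, 0.0997% and 0.0498% in DP2 and 0.837%, 0.343% and 1.93% in CD4+CD8lo, for AND minus F5, OT-II minus OT-I and MHCI-/- minus MHCII-/- in turn. Between the fates the number called was also 0 with DESeq2 and in each other alternative. Within families, with no filter on low counts, *Fos* was lower in OT-II than in OT-I in CD4+CD8lo cells (-2.32, adjusted p = 0.026 by edgeR). In CD4+CD8lo cells *Junb* had a log2 fold change of 0.43 (SE 0.21, adjusted p = 0.421 by edgeR) between the fates, a contrast in which the median of all genes was 0.12, with AND minus F5 at 1.47 (SE 0.50, adjusted p = 0.237), MHCI-/- minus MHCII-/- at 0.51 (SE 0.26, adjusted p = 0.476) and OT-II minus OT-I at -0.67 (SE 0.27, adjusted p = 0.612). The F5 side there was 1 mouse with 20 cells, which the fit assumes to vary like the other groups. In this gate 3 of 6 late maturation genes were higher in CD4-fated mice, *Klf2* by 2.43, *Ccr7* by 1.98 and *Ms4a4b* by 1.60 on the log2 scale (median of the list 1.79). *Cd79b*, the 1 of 5 B cell markers tested, was lower (-2.11). The part of these in the *Junb* values was not tested. *Junb* in DP2 had -0.05 (SE 0.19), with a 95% interval of -0.44 to 0.35.

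Of 84 member values against WT mice of the same sort 1 passed. Of 23 between the sorted and unsorted WT mice 3 passed, and these mice also differ in experiment and site, so sort and site cannot be told apart. The CD69 cut was set within each mouse, on 273, 340 and 157 cells in WT r1 to r3 and 2244 and 1559 in WT r4 and r5. Its part in these values was not tested. In DP2 cells, where 13.5% of genes passed in this comparison, *Batf* was at 39.4, 49.3 and 27.2 CPM in the sorted and 8.74 and 10.8 CPM in the unsorted mice (log2 fold change 2.05, SE 0.41, adjusted p = 0.0037 by edgeR). *Junb* was at 164, 180 and 163 against 74.4 and 61.7 CPM (1.32, SE 0.27, adjusted p = 0.0041). In DP1 cells *Batf* had 1.41 (SE 0.35, adjusted p = 0.049 by edgeR, 2.37% of genes passing). With single mice left out, this call was kept without an OT-I mouse, an OT-II mouse or WT r4 and was lost without each of the other 12 mice. Without WT r5 the log2 fold change was 1.04. Of 7 other settings 3 kept the call and 4 lost it, with log2 fold changes of 1.05 to 1.43.

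The call against WT mice of the same sort was *Batf* in the CD4 Mat gate, at 7.45 and 5.00 CPM in MHCII-/- against 23.1, 27 and 33.7 CPM in sorted WT mice (log2 fold change -2.49, SE 0.38, adjusted p = 0.000445 by edgeR, 8.21% of genes passing). The ranges did not overlap. The MHCII-/- values rest on 4 and 8 UMIs in 114 and 274 cells, and without MHCII-/- r2 the log2 fold change was -2.13 (adjusted p = 0.104). Which cells fill this gate in mice without MHC class II was not tested. No member passed between MHCI-/- and sorted WT mice, or between OT-I or OT-II and unsorted WT mice. The shares of all genes passing against WT were, for MHCI-/-, 0.0385% in DP1, 0.0249% in DP2, 0.0202% in CD4+CD8lo and 0.0442% in CD4 Mat. For MHCII-/- they were 0.116% in DP1, 0.0498% in DP2, 1.19% in CD4+CD8lo and 0.0232% in CD8 Mat. For OT-I they were 0.375%, 0.386%, 0.212% and 1.35% in DP1, DP2, CD4+CD8lo and CD4 Mat, and for OT-II 0.404%, 0.673%, 0.272% and 0.0774%. Between sorted and unsorted WT mice they were 0.121% in CD4+CD8lo and 0.884% in CD4 Mat. In CD8 Mat they were 0% for OT-I and 0% between sorted and unsorted WT mice.

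*Jund* differed between libraries of the same genotype. In quiescent DP-like cells it was at 268 CPM in WT r5, 246 in OT-I r2 and 319 in OT-II r2, against 987 CPM in WT r4, 1041 in OT-I r1 and 738 in OT-II r1 of the same genotypes in lanes 12 to 15. In mature SP-like cells it was 3.16, 2.69 and 2.17 times lower in lanes 16 to 19 in WT, OT-I and OT-II, and it was at least 1.91 times lower in each of the 6 main classes and 3 genotypes. The 2 lanes of one mouse differed by a median of 1.08-fold, at most 1.56-fold. Of 2753 genes at 50 CPM or more in mature SP-like cells, 132 (4.79%) had a log2 difference of -1.11 or lower in all 3 pairs. That is the smallest of the 3 differences of *Jund* (-1.66, -1.42 and -1.11). The log2 differences that follow are also those of mature SP-like cells. *Junb* was also lower in the 3 pairs (-0.40, -0.48 and -0.29 on the log2 scale), and so were *Fos* (-0.69, -1.33 and -0.92) and *Batf* (-0.16, -0.75 and -1.02). The other members, *Fosb*, *Fosl2* and *Jun*, were higher in WT r5 than in WT r4. Of other immediate-early genes looked at, *Ier2* (-1.23, -1.08 and -1.08), *Zfp36* and *Btg2* were lower in the 3 pairs, and *Dusp1* was not in OT-I (0.12). These lanes had the lowest RNA UMI totals of experiment 3 (9893333 to 14063172, against 24169871 to 43303999), and the part of depth in the difference was not tested.

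**Figure D4:**
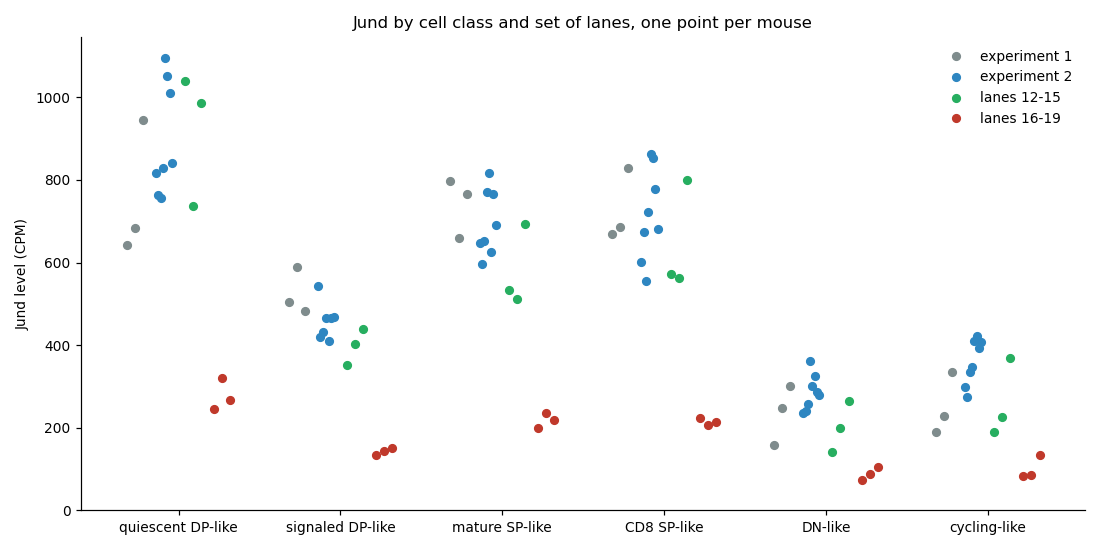
Level of Jund (CPM) in 6 cell classes, 1 point per mouse, coloured by the set of lanes. The 3 mice of lanes 16 to 19 lie below all other mice in each of the 6 classes.

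The genes most like each member were found over 168 sums of mouse and class among 7961 genes, as Pearson's r of log2(CPM + 1). The sums share mice, lanes and depth, so these are descriptions. *Junb* was most like *Zfp36l1* (r = 0.84), *Orai1* (0.83) and *Ier2* (0.83), and *Jund* most like *Nt5c* (0.83), *Sepw1* (0.82) and *Rabac1* (0.81). *Fos* was most like *Junb* (0.61), *Nr4a1* (0.59) and *Egr2* (0.58). *Fosb* and *Fosl2* shared *Nr4a3* as their closest gene (0.61 and 0.71), followed by *Ccl4* (0.57) and *Bcl2l11* (0.54) for *Fosb* and by *Tagap* (0.68) and *Tnfrsf1b* (0.68) for *Fosl2*. *Jun* was most like *Litaf* (0.65), *Cd83* (0.63) and *H2-Q6* (0.60), and *Batf* most like *Cd82* (0.60), *Dusp5* (0.59) and *Srgn* (0.58). Among the members themselves *Jun* and *Batf* had r = -0.07 and *Fos* and *Junb* the highest value.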

How the data were processed

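The 7 members, the gene lists and the tests were chosen with earlier results of these data known. The authors deposited raw UMI counts per gene or antibody and barcode for each lane (10x 3′ libraries), aligned to mm10 and counted with Cell Ranger 3.1.0, as their processing notes and methods give. The 6 pooled files repeat these counts and were not used. Cells with at least 200 genes, at most 15% mitochondrial UMIs, at least 70 antibodies detected and 1000 to 10000 antibody UMIs were kept, and 2603 doublets were called per lane at 0.8% per 1000 cells by their share of simulated doublets among neighbors. scanpy 1.11.5 clustered 2000 variable genes in 30 components (resolution 1), leaving out the 121 listed genes. A first clustering split by lanes 16 to 19, so the components were corrected over 4 sets of lanes (a Harmony-type correction), which was chosen after seeing the data. Pseudotime came from variable genes chosen anew within the ordered cells, in 20 components with the same type of correction, again without the listed genes. The z threshold for cluster names (0.5) and the branch thresholds were also set after seeing the data. Gamma-delta T-, NKT-, Treg- and myeloid-like cells were left out of the gates.

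CD4, CD8a and TCRβ gates were set per set of lanes by a 2-component mixture. CD69 and CD127 were set at percentile 90 of the 25% of each mouse's CD4+CD8a+ cells lowest in TCRβ. This rule was picked after seeing antibody values and after other rules (mixtures for these antibodies, and other reference cells, percentiles and units of lanes) had left gates near empty. It was picked by cell numbers alone, before member values were looked at in these gates, and makes a gate relative to its own mouse.

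UMIs were summed per mouse and bin or gate and tested with edgeR 4.0.16 (quasi-likelihood, TMM, filterByExpr, threshold 0.05), on simulated data first. DESeq2 1.42.0, other scalings, filters, thresholds and left-out mice were alternatives, and leaving out lanes 16 to 19 was added after *Jund* was seen to be low there. All members are named, with the 3 called genes of largest change per list and the 3 genes most like each member. p-values measure the spread between mice in the bins and in the comparisons between groups. In the WT gate steps they measure the spread left within mice, pooled over the 39 sums of 5 mice in 1 fit. The replicate number follows the experiment in the AND and F5 family and the set of lanes in the OT family. All MHCI-/- and MHCII-/- mice were in experiment 2, whatever their number. In the bins, though not in the gates, MHCI-/- and MHCII-/- mice of the same number had a median correlation near 0, so the numbers were used as a block only in an alternative.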

Additional observations from a re-analysis of the deposited data

Results flagged for a closer look

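Of 19 groups of mice tested for a mouse far from the rest, 2 had one, and chance alone gives about 1 in 20 groups. In pseudotime bin 8 *Junb* in OT-II r2 was at 42.2 CPM, with the other CD4-fated mice at 109 to 170 CPM. In bin 10 *Fosl2* in F5 r1 was at 0 CPM, with the other CD8-fated mice at 6.15 to 13 CPM.

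In some bins the families moved in opposite directions, each mouse of one fate lying above each of the other within a family. These differences between families were not tested. They are listed for members that passed the filter on low counts in the bin and for families with 2 mice of each fate. With 2 mice against 2, such separation also arises by chance. Its share over all genes was not computed, so the list is not a result about these members. *Fos* (bins 3 and 5), *Fosb* (bin 3), *Fosl2* (bin 8) and *Jun* (bin 3) showed such a pattern below the filter, and *Jun* in bin 9 with 1 F5 mouse (-1.58 in the AND and F5 family and 2.42 in the MHC family). For *Junb* in bin 2 the CD4-fated minus CD8-fated mean of log2(CPM + 1) was 0.42 in the AND and F5 family and -0.34 in the OT family. For *Junb* in bin 7 it was 0.82 in the AND and F5 family, 0.47 in the MHC family and -0.59 in the OT family. For *Jund* it was 0.10 in the AND and F5 family and -0.20 in the MHC family in bin 2, and 0.30 and -0.31 in bin 8.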

How the results depend on the processing

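None of the results listed by setting reversed in the alternatives run. Member calls by bin (6) became 10 with no filter, 1 without the family covariate, 3 with the maturation score, and 1 to 7 without single mice. All genes called by bin (3657) became 5539 with no filter, 1952 without the family covariate, 6120 without lanes 16 to 19 and 2306 to 4863 without single mice. With the replicate block in place of the family they were 5764, with 7 member calls. *Junb* in bin 5 (0.76) and *Jund* in bin 6 (-0.64) were gained, the *Jun* and *Junb* calls of bins 8 to 10 were kept (*Junb* 0.57, 0.63 and 0.73 on the log2 scale), and *Fosl2* was below the filter. The median correlation of same-numbered mice over bins was 0.13 for AND with F5, 0.50 for OT-II with OT-I and -0.0028 for MHCI-/- with MHCII-/-, and over 2 gates it was 0.119, 0.545 and 0.267 in turn. The numbers coincide with the experiment for AND and F5 and with the set of lanes for OT-II and OT-I, and with neither for MHCI-/- and MHCII-/-, so the mice were not paired over all families.

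Between all CD4-fated and CD8-fated mice in protein gates the member calls were 0 in each alternative, also without single mice (0 to 0). All genes called (117) became 404 with no filter, 176 with doublets kept, 484 with gate thresholds 0.5 lower, 374 without lanes 16 to 19, 19 to 157 without single mice, and 74 with the replicate block. In the WT gate steps member calls (4) became 7 with no filter, 2 with no mouse block and 3 to 5 without single mice, and genes called (6625) became 1880 with no mouse block and 4942 to 6110 without single mice. With no mouse block *Fos* (1.33, adjusted p = 0.249) and the later *Junb* step (0.37, adjusted p = 0.648) were lost. Against WT and between the sorts of WT, member calls (4) became 11 with no filter and 2 to 8 without single mice, and genes called (2656) became 6794 with no filter, 4087 without lanes 16 to 19 and 1335 to 7395 without single mice. The highest counts there were without WT r4, which left 1 unsorted WT mouse, assumed to vary like the others. The causes were not tested.

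Shares with a UMI rose with depth. With 2000 UMIs per cell, in cells of at least that depth, they were 5.56% for *Fosl2* and 34.6% for *Junb* in Treg-like cells and 73.7% for *Jund* in quiescent DP-like cells. Unthinned they were 9.72%, 54.1% and 79.3%, and 26.6% for *Batf* in Treg-like cells, and 6.19% for *Fos* and 10.0% for *Jun* in myeloid-like cells. *Fosb* and *Fosl2* were too sparse to test in most gates and bins.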
